A study of Drosophila melanogaster with 5 samples.

Results

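The 6 actin genes of Drosophila melanogaster (Act5C, Act42A, Act57B, Act79B, Act87E and Act88F) were taken by their symbols from a table of 17807 genes in RNA of larval hemolymph, the blood of the fly. All 6 were listed, and 5 of them reached the minimum of 10 counts over all libraries, above which genes were tested. The libraries came from Cg-Gal4>UAS-abd-A larvae, in which the Hox gene abd-A is overexpressed (3 libraries, called abd-A libraries), and from Cg-Gal4>CS larvae, which carry the driver crossed to the wild-type strain Canton-S and no UAS transgene (2 libraries, called control libraries). All larvae thus carried Cg-Gal4, which is active in hemocytes and in the fat body, so that abd-A was not confined to blood cells. Hemolymph of 20 larvae aged 96 to 102 h was pooled for each library.

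Actin is the protein of the microfilaments, which assemble from monomers and carry cell shape, crawling, engulfment and contraction. In flies Act5C and Act42A encode the cytoplasmic actins made by nearly all cells, Act57B and Act87E are the main actins of larval body wall muscle, Act79B is an actin of adult leg and thoracic muscles, and Act88F is the actin of the adult indirect flight muscles. Among blood cells, plasmatocytes use actin to engulf and crawl, and lamellocytes are large flat cells, rich in actin filaments, that wrap foreign bodies.

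The genes lie apart on chromosomes X, 2 and 3 of the dm6 build. Act5C (FBgn0000042) is at X:5900861-5905399 on the plus strand, Act42A (FBgn0000043) at 2R:6013910-6015689 on the minus strand, and Act57B (FBgn0000044) at 2R:20944021-20946431 on the plus strand. Act79B (FBgn0000045) is at 3L:21985210-21987190, Act87E (FBgn0000046) at 3R:13425983-13428375 and Act88F (FBgn0000047) at 3R:15439969-15442177, all on the plus strand. Each encodes a coding sequence of 1131 bases, stop codon included, and the genes differ in how many exon bases lie outside it. These are 1847 bases in Act5C, 858 in Act87E, 593 in Act57B, 495 in Act42A, 488 in Act79B and 464 in Act88F. Coding sequences of actin genes are known to be nearly alike, and how reads that fit several genes were counted is not given in the sources used here. The division of counts among the 6 genes is therefore less certain than their sum. Exons of 4 of the genes overlap no other annotated gene. Act57B contains a small nucleolar RNA gene (FBgn0065059) on its own strand, with 0 counts in all libraries, and Act87E shares 60 exon bases with lncRNA:CR45591 on the opposite strand.

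The libraries held between 3848911 and 4959111 counts on genes in the abd-A group, and 1252969 and 2567624 in control replicates 1 and 2. The floor of detection of 3 counts was therefore 0.638 to 0.817 CPM in abd-A libraries, and 2.06 and 1.16 CPM in the controls. CPM, the unit of the levels below, are counts relative to the library total after TMM scaling. Set against the least number of reads per sample that the paper states, counts on genes were 15.4% to 19.8% in abd-A libraries. In control replicates 1 and 2 they were 5.01% and 10.3%. The libraries were paired-end, and whether the stated number counts single reads or read pairs is not given. The units of these shares may therefore differ. The reason for these low shares was not tested. For abd-A itself, 620, 474 and 638 counts were found in abd-A libraries, against 0 and 21 in the controls. The control libraries differed more from each other (chi-square per degree of freedom 35.3) than any pair of abd-A libraries (6.83 to 11.7). Calls rest on edgeR (quasi-likelihood F-test), with an adjusted p (Benjamini-Hochberg) under 0.05 and at least a 2-fold change. By this rule 1274 of 11624 genes (11.0%) were called up and 1481 (12.7%) down in abd-A libraries, against 1045 and 1696 with DESeq2's size factors. Over all genes the log2 fold change had a median of -0.17, and of -0.36 with library totals. Cell type markers differed too. Lamellocyte markers summed to between 19512 and 22642 CPM in abd-A libraries, against 1253 and 1704 in the controls, with 9 of 9 called up. Plasmatocyte markers summed to between 7130 and 8435 CPM, against 21309 and 26107, with 5 of 8 called down, and crystal cell markers to between 567 and 867 CPM, against 9013 and 10829, with 5 of 5 called down.

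The sum of the actin genes was higher in abd-A libraries, and the genes did not move together. Act5C, Act42A and Act88F were called up and Act57B and Act87E were called down, so that the 5 tested genes were all called, against 23.7% of all genes tested. Groups did not overlap in any of these 5 genes, which was the case for 56.6% of all genes (27.3% with all abd-A libraries above the controls, 29.3% with all below). Counts of the 6 genes together were 109817, 81599 and 112449 in the abd-A libraries, against 5499 and 17800 in control replicates 1 and 2. This was between 2.12% and 2.32% of all counts in abd-A libraries, against 0.439% and 0.693% in the controls. In CPM the sum averaged 23568 ± 1199 in abd-A libraries and 5341 ± 2211 in control libraries (SD, n = 3 and 2), which was 4.41-fold higher. The exact permutation test over the 10 ways to draw 2 of 5 libraries gave p = 0.1 (two-sided), the smallest that this design allows.

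**Figure D1:**
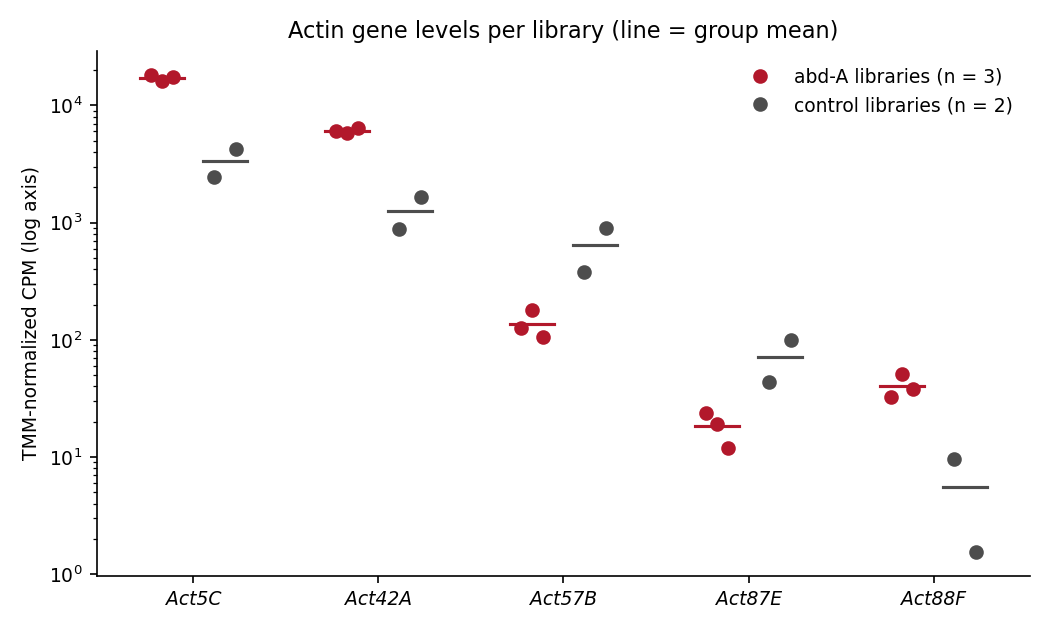
TMM-normalized CPM (log axis) of 5 actin genes in each library, with abd-A libraries in red (n = 3) and control libraries in gray (n = 2) and a line at each group mean. The groups do not overlap in any gene, with abd-A libraries above the controls for Act5C, Act42A and Act88F and below them for Act57B and Act87E (Act79B, with 2 counts in all, is not drawn).

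Act5C, a cytoplasmic actin, was the most abundant of the 6 genes in every library. It had 18327, 16118 and 17372 CPM in abd-A replicates 1, 2 and 3, against 2474 and 4260 CPM in control replicates 1 and 2. All abd-A libraries were high and close to each other, and the controls differed from each other by more than the abd-A libraries did on a log scale. Act5C held the second highest count of any gene in all 3 abd-A libraries, against rank 33 and rank 24 in the controls. The means were 17272 ± 1108 CPM in abd-A libraries and 3367 ± 1263 CPM in control libraries (SD, n = 3 and 2), with a log2 fold change of 2.36 (SE 0.30, adjusted p = 0.000601, edgeR).

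Act42A, the other cytoplasmic actin, followed the same profile at a lower level. It had 6036, 5862 and 6401 CPM in abd-A libraries, against 875 and 1638 CPM in the controls. Again control replicate 2 was the higher of the controls and the groups were far apart. The means were 6100 ± 275 CPM in abd-A libraries and 1257 ± 540 CPM in control libraries, with a log2 fold change of 2.28 (SE 0.30, adjusted p = 0.000799, edgeR). Its log2 ratio to Act5C, taken within each library and so free of scaling, averaged -1.50 in abd-A libraries and -1.44 in control libraries. The difference of -0.06 had p = 0.6 in the exact permutation test (adjusted p = 0.75 over 5 ratios). Both cytoplasmic genes were higher in the libraries in which lamellocyte markers were higher. The part of cell composition in this was not tested, and in bulk RNA more cells of a type and more RNA per cell cannot be told apart.

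Act57B, a larval muscle actin, changed in the opposite direction. It had 125, 180 and 107 CPM in abd-A libraries, against 376 and 904 CPM in control replicates 1 and 2. Every abd-A library was below both controls, and control replicate 2 was again above control replicate 1. The means were 137 ± 37.9 CPM in abd-A libraries and 640 ± 373 CPM in control libraries, with a log2 fold change of -2.23 (SE 0.36, adjusted p = 0.00228, edgeR). The size of this change depended on control replicate 2. Without that library the log2 fold change was -1.48, and without control replicate 1 it was -2.73.

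Act87E, the other actin of larval muscle, was lower than Act57B in every library and changed in the same direction. Its values were 23.7, 19.1 and 11.9 CPM in abd-A libraries, against 43.3 and 100.5 CPM in the controls. The groups were separate and control replicate 2 was again the highest library. The log2 fold change was -1.99 (SE 0.43, adjusted p = 0.00945, edgeR), and -1.27 without control replicate 2. The antisense neighbor lncRNA:CR45591 had 24, 32 and 7 counts in abd-A libraries, against 81 and 135 in the controls (log2 fold change -3.39, SE 0.60, adjusted p = 0.0036, edgeR). The library kit keeps strand, while the strand setting of the counting is not given in the sources used here. Over the 403 to 464 pairs per library with at least 20 counts, antisense RNA genes had a median of 5.61 to 10.8 times the counts per base of the coding genes that they overlap. For Act87E and lncRNA:CR45591, reads of one cannot be told apart from reads of the other with these files. Which strand was counted is uncertain for all other genes too, the other actins included, and was not tested. All levels, ranks, shares and ratios given here carry this limit.

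Act88F, the flight muscle actin, was low throughout and changed in the same direction as the cytoplasmic actins. It had 145, 189 and 178 counts in abd-A libraries, against 14 and 4 in control replicates 1 and 2, or 32.4, 51.5 and 37.9 CPM, against 9.62 and 1.55 CPM. The abd-A libraries lay close together, while control replicate 2 was just above its floor of 1.16 CPM. The log2 fold change was 2.99 (SE 0.68, adjusted p = 0.0114, edgeR). The call was lost without abd-A replicate 2 (log2 fold change 2.73, adjusted p = 0.0718), and the value was 4.67 without control replicate 1 and 2.05 without control replicate 2. The sarcomere list described below held other genes known for flight muscle, of which a pair was chosen for mention after their values were seen. TpnC4, a troponin C of flight muscle, had 0, 0 and 3 counts in abd-A libraries and 0 in both controls, and fln, which encodes flightin, had 1, 0 and 0 counts, against 0 and 8. Another troponin C gene of that list, TpnC41C, had 0, 0 and 1 counts in abd-A libraries, against 17 and 10, and was called down. It reached the minimum of 10 counts only through the controls. Within libraries the log2 ratio of Act88F to Act5C was -9.14, -8.29 and -8.84 in abd-A libraries, against -7.96 and -11.25 in the controls, and its difference of 0.85 had p = 0.8 in the exact permutation test. Whether reads of the abundant actins were counted on Act88F was not tested. Act79B, of adult muscles, had 0, 0 and 2 counts in abd-A libraries and 0 in both controls, and was not tested.

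Per length of exons, the order of the genes was the same in all 5 libraries down to the third place. Act5C stood at 5800 ± 372 CPM per kb of exons in abd-A libraries and 1131 ± 424 in control libraries, and Act42A at 3751 ± 169 in abd-A libraries and 773 ± 332 in control libraries. The abd-A libraries separated the levels of these neighbors, while in the controls their ranges overlapped (831 and 1431 for Act5C, 538 and 1008 for Act42A). Act57B was next, at 79.5 ± 22.0 CPM per kb in abd-A libraries and 371 ± 217 in control libraries, where its higher value, 524, lay just under the lower value of Act42A, 538. The fourth place went to Act88F in abd-A libraries and to Act87E in the controls. Act88F averaged 25.4 ± 6.16 CPM per kb in abd-A libraries and 3.50 ± 3.58 in control libraries, and Act87E averaged 9.16 ± 2.98 in abd-A libraries and 36.1 ± 20.3 in control libraries (SD, n = 3 and 2). In each group the libraries of these last neighbors did not overlap.

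The make-up of the actin counts differed accordingly. Cytoplasmic actins held 99.3%, 98.9% and 99.3% of the actin counts in abd-A libraries, against 88.7% and 85.4% in the controls. Act5C held 73.3 ± 1.22% of the actin counts in abd-A libraries and 63.6 ± 2.67% in control libraries, a difference of 9.66 percentage points (exact permutation p = 0.1, adjusted p = 0.2 over 6 shares). For Act42A the shares were 25.9 ± 1.15% in abd-A libraries and 23.4 ± 0.398% in control libraries (exact permutation p = 0.2, adjusted p = 0.3). The largest difference was that of Act57B. Its share was 0.510% (95% Wilson interval 0.470 to 0.554), 0.808% (0.748 to 0.871) and 0.446% (0.408 to 0.486) in abd-A replicates 1, 2 and 3, against 9.95% (9.18 to 10.8) and 13.1% (12.6 to 13.6) in control replicates 1 and 2. The groups differed by far more than these intervals, which cover counting error only. The difference of -10.9 points had p = 0.1 in the exact permutation test, the smallest possible (adjusted p = 0.2). Act87E held 0.0774 ± 0.0245% in abd-A libraries and 1.30 ± 0.219% in control libraries (exact permutation p = 0.1, adjusted p = 0.2). The share of Act88F was 0.174 ± 0.0516% in abd-A libraries and 0.139 ± 0.164% in control libraries, and the groups overlapped (exact permutation p = 0.9).

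**Figure D2:**
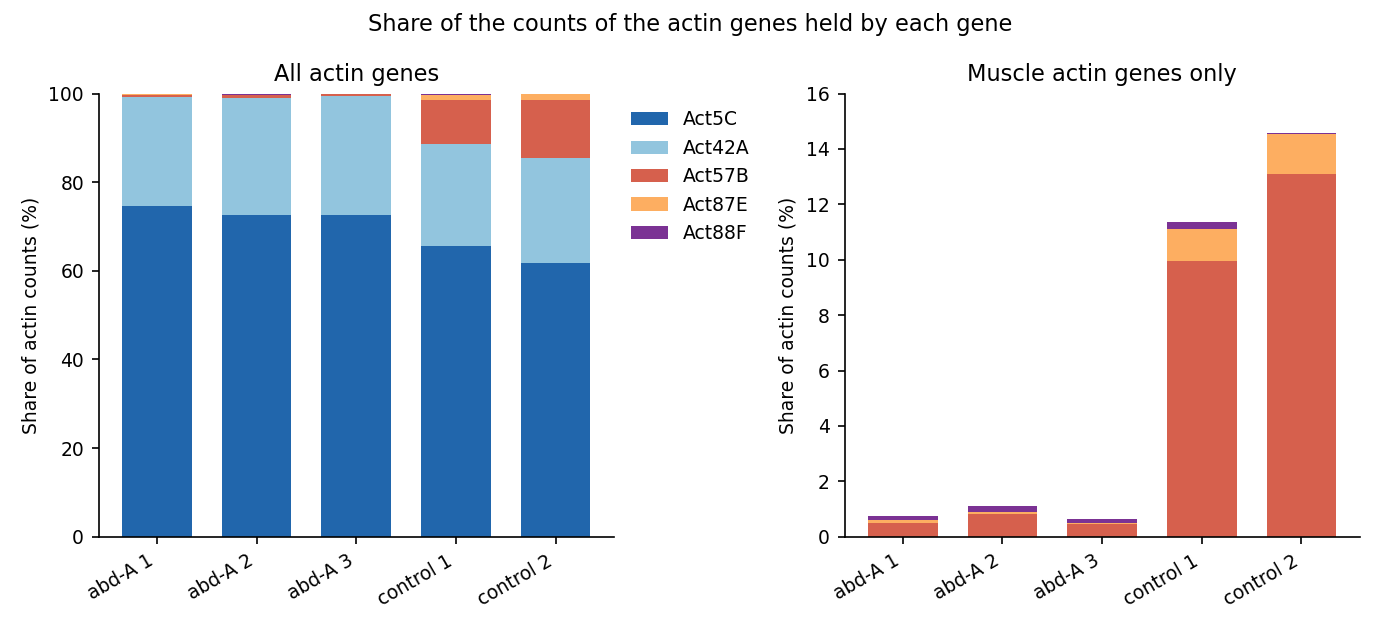
Share of the actin counts (%) held by each gene, stacked per library, for all genes on the left (axis from 0 to 100%) and for the muscle actins alone on the right (axis from 0 to 16%). Muscle actins hold 0.739%, 1.13% and 0.655% of the actin counts in abd-A libraries, against 11.3% and 14.6% in the controls (Act79B is too rare to be drawn).

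As a log2 ratio of muscle to cytoplasmic actin counts, the libraries stood at -7.07, -6.46 and -7.24 in the abd-A group, against -2.96 and -2.55 in the control group. The groups were separate by a distance several times their spread. The difference of -4.16 corresponds to a ratio of 0.0558 (exact permutation p = 0.1). It was -4.13 per kb of exons and -4.06 per kb of the exon bases outside the coding sequence. Both divide the whole count of each gene by a fixed length, so they could change the difference only little. They do not show whether reads were counted on the right gene.

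The larval muscle actins were then set beside other genes of larval muscle. The 10 marker genes of larval muscle, among them Mhc (the muscle myosin heavy chain), Prm (paramyosin) and bt (projectin), summed to between 393 and 556 CPM in abd-A libraries, against 1577 and 3267 CPM in control replicates 1 and 2. Of these 8 were called down, against 12.7% of all genes tested, and all 10 were detected in both groups. The log2 ratio of Act57B to this sum was -1.72, -1.63 and -1.88 in abd-A libraries, against -2.07 and -1.85 in the controls. The groups overlapped, with a difference of 0.22 (exact permutation p = 0.3). For Act87E the difference was 0.43 (exact permutation p = 0.5). A p of this size does not show that the ratios were equal. Act88F stood apart, with log2 ratios to the same sum of -3.67, -3.43 and -3.37 in abd-A libraries, against -7.31 and -10.87 in the controls, a difference of 5.60 (exact permutation p = 0.1). Hemolymph was collected by opening larvae, and how much body wall muscle entered each pool was not measured. Fat body markers summed to between 507 and 1653 CPM in abd-A libraries, against 2771 and 22776 CPM in control replicates 1 and 2. Of 7 fat body markers 6 were called down, with a median log2 fold change of -8.10. The marker that was not called, apolpp, made up most of the sum in abd-A libraries, with 798, 1518 and 483 CPM. The sum of the midgut markers lay the other way, at 34.1 to 51.7 CPM in abd-A libraries, against 11.7 and 7.37 CPM in control replicates 1 and 2. Of 4 tested, 1 was called up, against 11.0% of all genes tested. This was Jon65Aiii, which made up most of the sum in abd-A libraries. Jon65Aiii, alphaTry and betaTry reached the minimum of 10 counts only through abd-A libraries. The remaining tested marker, Vha100-4, was lower in abd-A libraries, with 8, 3 and 2 counts, against 17 and 8. It made up the whole sum in control replicate 1. The part of other tissues in the actin values was not tested.

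**Figure D3:**
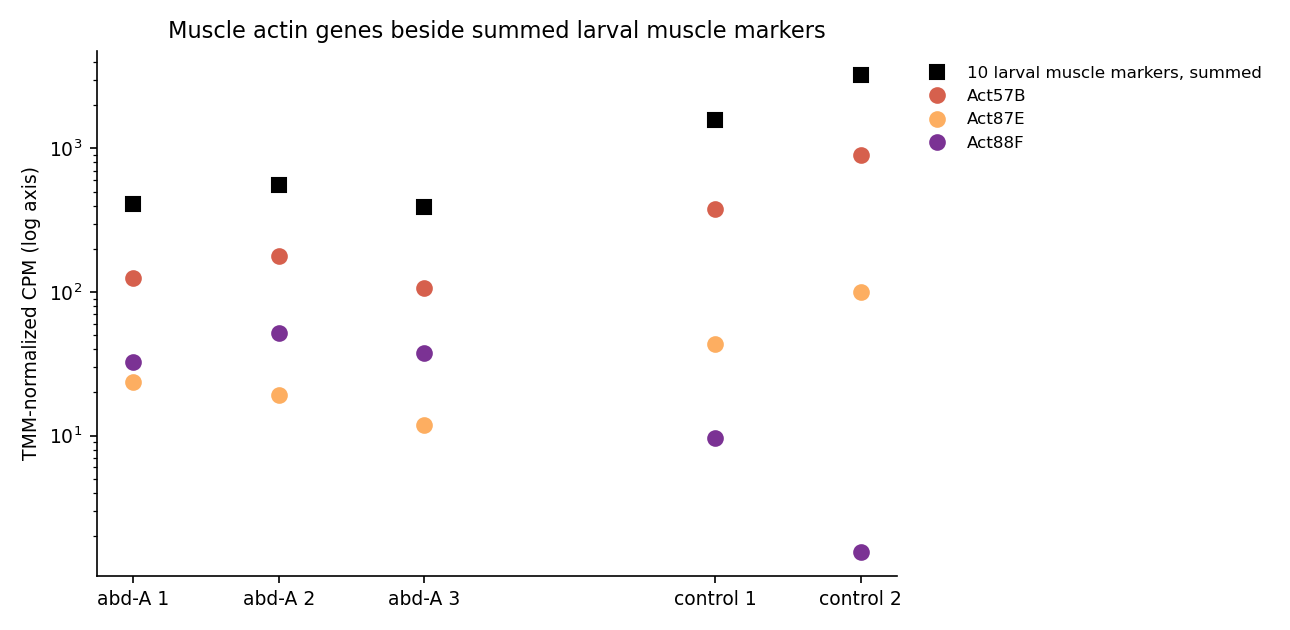
TMM-normalized CPM (log axis) of Act57B, Act87E and Act88F (circles) and of 10 larval muscle markers summed (black squares) in each library. Act57B and Act87E are lower in abd-A libraries along with the markers, with both highest in control replicate 2, while Act88F is lowest there, at 1.55 CPM.

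Proteins that bind actin were described by lists of genes arranged by role. The first 4 lists hold 58 genes, called actin regulators here, integrin subunits included. Of the 58 genes, 35 (60.3%) were called up and 5 (8.62%) down, against 11.0% up and 12.7% down among all genes tested. Their median log2 fold change was 1.47, against -0.17 over all genes. With control replicate 1 left out the calls were 33 up and 7 down, and with control replicate 2 left out 39 up and 5 down. Without abd-A replicate 1, 2 or 3 the genes called down numbered 2, 3 and 3. The first list holds genes that start new filaments, with the Arp2/3 complex, its activators and the formins. Of 24 genes 18 were called up, with a median log2 fold change of 1.63. The formin capu had the largest log2 fold change in this list (3.40, SE 0.28), with 320, 242 and 330 CPM in abd-A libraries, against 24.0 and 31.8 CPM in the controls. Whamy (3.38), a relative of WASp, Vrp1 (3.17), the partner of WASp, and Arpc4 (2.23), a subunit of the Arp2/3 complex, also rose. The call of Arpc4 was near the threshold (SE 0.71, adjusted p = 0.0454, edgeR), with 2 and 75 counts in control replicates 1 and 2. The formin dia was the single gene called down (-1.26, SE 0.28, adjusted p = 0.0106, edgeR).

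Of 11 genes for monomer binding and filament turnover, 7 (63.6%) were called up and 2 (18.2%) down, against 11.0% and 12.7% of all genes tested. The genes called up include tsr (cofilin), which severs filaments. It had 1791, 1564 and 1739 CPM in abd-A libraries, against 179 and 410 CPM in the controls (log2 fold change 2.52, SE 0.35). The kinase LIMK1, which inactivates cofilin, rose by 3.66 on the log2 scale, flr, a cofactor of cofilin, by 2.11, and the monomer-binding twf (twinfilin) by 2.06. Regulators with opposed roles were thus higher in the same libraries. Gel (gelsolin), which severs and caps filaments, was called down (-1.92, SE 0.22), as was ena (-1.13, SE 0.22), which protects growing filament ends.

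Capping and crosslinking genes had a smaller share called up than the lists above. Of 12 genes, 4 (33.3%) were called up and 2 (16.7%) down, against 11.0% and 12.7% of all genes tested. The share called down was thus near that of all genes. The median log2 fold change was 0.91. The filamin cher (3.08), Chd64 (2.32), the fimbrin Fim (2.32) and the capping protein subunit cpa (1.46) rose. Actn (alpha-actinin) fell (-1.04, SE 0.19), and so did the filamin-type jbug (-2.44, SE 0.76), named after its values were seen, with 12, 13 and 13 counts in abd-A libraries, against 30 and 32. Of 11 genes that link filaments to the membrane and to adhesion sites, 6 were called up, among them Vinc (vinculin, 4.06), the integrin subunits mys (3.59) and mew (3.19), and the kindlin Fit1 (3.27). The genes cher and mys are also lamellocyte markers. Among the genes named from the lists and markers, some have exons that overlap an exon of a gene on the other strand. They are Arpc4, Vrp1, tsr, twf, Gel, cpa, cher, Actn, Arp1, sls, fln, elav, apolpp and Vha100-4. Their counts carry the same limit of strand as Act87E. Other list genes called up, among them Arpc5, SCAR, Cyfip, Frl, capt, rhea, Pax and CCT7, overlap in the same way. The numbers of genes called in the lists therefore carry this limit too.

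All 8 subunits of the CCT chaperonin, the complex that folds new actin and tubulin, were called up, against 11.0% of all genes tested. Their median log2 fold change was 2.05. CCT2 (2.53, SE 0.32) had 568, 541 and 582 CPM in abd-A libraries, against 61.8 and 131 CPM in the controls. Among 8 tested actin-related proteins, 3 were called up, which were Arp3 (1.94), Arp2 (1.80) and Arp1 (1.65, a dynactin subunit). Arp2 and Arp3 are also in the nucleation list and were counted there. This leaves 1 call among the other 6 genes, against 11.0% called up among all genes tested. The coactivator Mrtf, which binds monomeric actin and drives actin genes with the transcription factor SRF, was called up (1.41, SE 0.25, adjusted p = 0.00327, edgeR), with 120, 115 and 138 CPM in abd-A libraries, against 46.0 and 47.7 CPM in the controls. The fly SRF gene bs had 57, 40 and 33 counts in abd-A libraries, against 6 and 27 (log2 fold change 0.46, SE 0.76, adjusted p = 0.687).

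Genes of the muscle sarcomere lay on the other side. Of 23 tested, 14 (60.9%) were called down and 1 (4.35%) up, against 12.7% and 11.0% of all genes tested. The median log2 fold change was -1.66. Without control replicate 2 the calls were 10 down, and without control replicate 1 they were 15. Without abd-A replicate 1 and without abd-A replicate 3 they were 9 each. The giant proteins bt (-3.77, SE 0.30) and sls (titin-like, -2.88, SE 0.27), Mhc (-3.38, SE 0.50) and the troponin I gene wupA (-2.18, SE 0.27) fell. Mhc had 36.0, 68.9 and 41.9 CPM in abd-A libraries, against 210 and 806 CPM in control replicates 1 and 2. TpnC41C, a troponin C named after its values were seen, had 0, 0 and 1 counts in abd-A libraries, against 17 and 10. It thus reached the minimum of 10 counts only through the controls. Its control mean was 11.0-fold above the mean floor of 3 counts in abd-A libraries, with 11.7 and 3.88 CPM in control replicates 1 and 2. The single gene called up was Zasp52 (1.24, SE 0.29, adjusted p = 0.0121, edgeR), a scaffold of the Z-disc that is also found at adhesion sites of other cells. Its call was lost without abd-A replicate 1 (adjusted p = 0.0627), without abd-A replicate 3 (adjusted p = 0.066) and without control replicate 1, where the log2 fold change was 0.86. The 10 larval muscle markers above are all in this list.

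**Figure D4:**
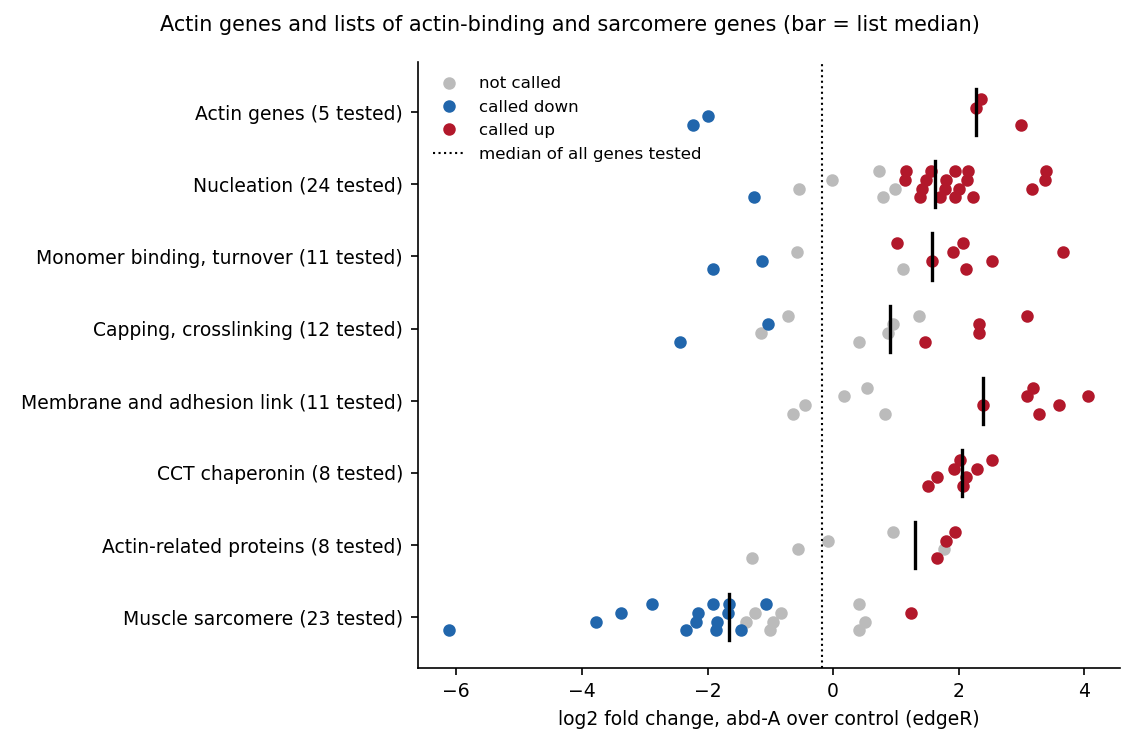
Log2 fold change (abd-A over control, edgeR) of the 5 tested actin genes and of the genes in each list, 1 point per gene, with called genes in red (up) or blue (down) and a bar at each list's median. The dotted line marks the median of all genes tested, -0.17. Lists of regulators lie mostly to its right and the sarcomere list to its left, and the actin genes lie on both sides. The leftmost point is TpnC41C, whose fitted value depends on the prior count of the fit.

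Genes with the profile most like each actin gene were found by the root mean square difference of centered log2 CPM over the 5 libraries, among 4346 genes with a mean of at least 100 counts. Nearest to Act5C were drongo (0.0603), Act42A (0.0742) and CG9586 (0.0790). Nearest to Act42A were sigmar (0.0348), drongo (0.0520) and the fimbrin gene Fim (0.0573). Those of Act57B were the paramyosin gene Prm (0.119), elav (0.184), an RNA-binding protein of neurons, and the troponin T gene up (0.187). Act87E was nearest to cpx (complexin, of synapses, 0.178), to the muscle myosin light chain Mlc2 (0.237) and to up (0.240). For Act88F the nearest genes, CG6184 (0.464), sano (0.493) and peg (0.498), were farther away than those of the other 4 actin genes. Neuron markers summed to between 68.2 and 124.8 CPM in abd-A libraries, against 201 and 394 CPM in the controls.

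**Figure D5:**
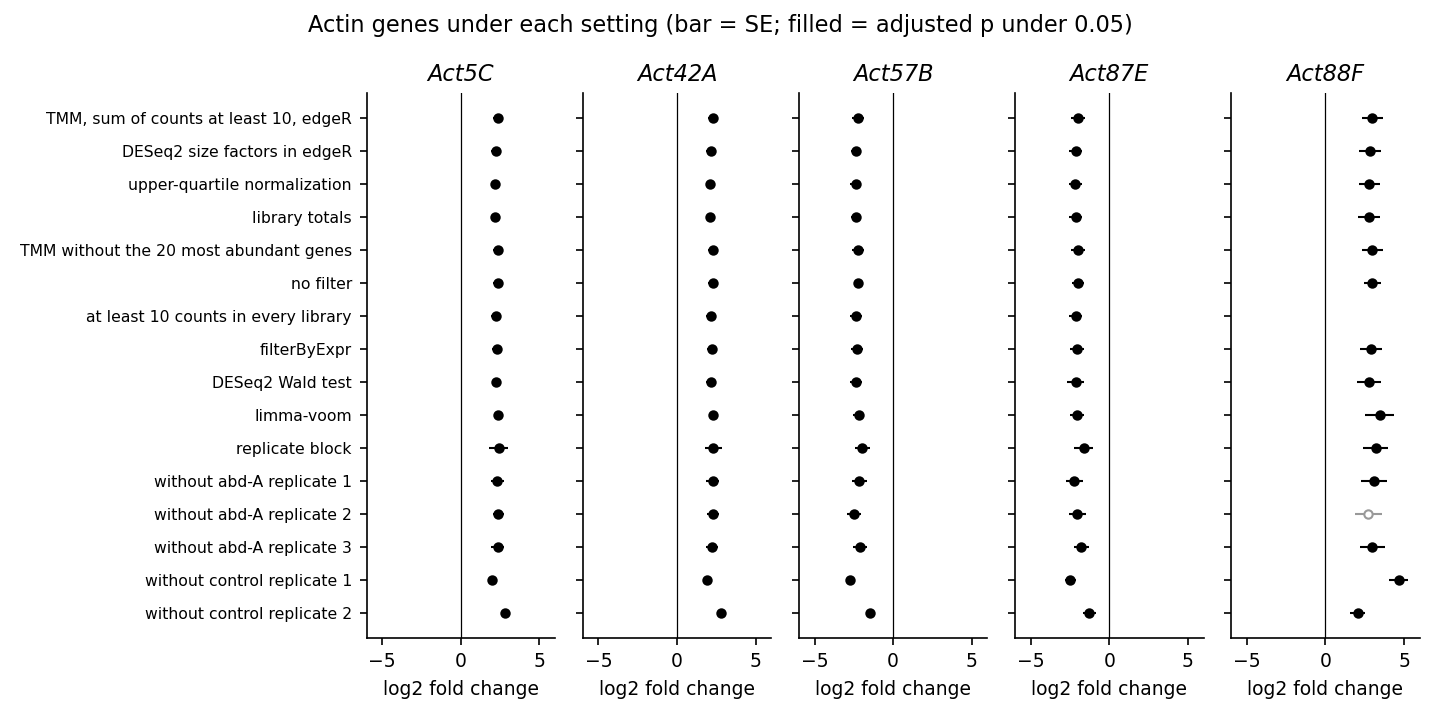
Log2 fold change of 5 actin genes (abd-A over control) under each setting of the analysis, 1 row per setting, with bars for the standard error and filled points for an adjusted p under 0.05. Every point of Act5C, Act42A and Act88F lies above 0 and every point of Act57B and Act87E below 0, and the single open point is Act88F without abd-A replicate 2. Act88F has no value where 10 counts in every library were required.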

How the data were processed

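RNA-seq counts of 5 hemolymph libraries were used. The authors checked reads with FastQC 0.11.7, mapped them to dm6 with STAR 2.5.2 and counted them on genes with HTSeq 0.11.2 (versions from the submitters' processing notes), and they deposited raw counts per gene with no normalization. The annotation release, strand setting and counting mode are not given in the sources used here. Groups and replicate numbers came from the sample labels. The labels do not say that same-numbered libraries belong together.

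Genes with at least 10 counts over all libraries were normalized with TMM and tested in 1 fit with edgeR 4.0.16 (quasi-likelihood F-test, no covariate) in R 4.3.3, with Benjamini-Hochberg adjustment over 11624 genes. Standard errors were derived from the fold change and F. Shares and ratios within a library used raw counts (0.5 added for ratios). They were compared by two-sided exact permutation tests in Python 3.11.15 with scipy 1.17.1. Intervals are 95% Wilson intervals and cover counting error only, since amplified reads without molecular identifiers are not independent molecules. Coordinates and exon lengths came from Ensembl release 115, which held 17710 of 17807 gene identifiers. List names were matched by symbol (162 of 165) or synonym (2), and 1 was not matched. A list of other actin-binding genes is not reported here. The labels do not say whether replicates came from separate crosses, so p-values measure the spread between these libraries only.

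The 6 genes, the lists and the markers were chosen with earlier results of these data known. Named genes were the actins, the 3 nearest profiles of each, genes overlapping their exons, Mrtf and bs, and up to 4 called genes per list and direction, largest first, with separate groups and on average 100 counts or more in the group where they were higher. On simulated counts with 200 changed genes among 11197, 55% of 100 genes changed 4-fold and 82% of 100 genes changed 16-fold were recovered, with 7 false calls. The changed genes were drawn from those with a mean above 5 CPM, and both groups had the same dispersion. In the data 23.7% of genes were called and the controls differed more than the abd-A libraries. These rates therefore need not hold for the data. Alternatives were other scalings (DESeq2's size factors, upper quartile, totals, and TMM computed without the 20 genes of highest count), stricter or no count filters, the DESeq2 1.42.0 Wald test, limma-voom (limma 3.58.1), a replicate block, no fold threshold, 5 in place of 0.5 added, and each library left out. Shares per kb of exons were planned, and those per kb of non-coding exon bases were added after seeing the data.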

Additional observations from a re-analysis of the deposited data

How the results depend on the processing

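The 5 actin calls kept their direction under every alternative that gave a value, and their side of the threshold under all but 1, in which abd-A replicate 2 was left out (Act88F 2.73, adjusted p = 0.0718, edgeR). Leaving out each library in turn gave log2 fold changes of 2.01 to 2.78 for Act5C, 1.89 to 2.78 for Act42A, -2.73 to -1.48 for Act57B, -2.47 to -1.27 for Act87E and 2.05 to 4.67 for Act88F. Over the same fits the log2 ratio of summed actin was 1.76 to 2.62 and that of muscle to cytoplasmic actin -4.40 to -3.96. Share differences were 7.77 to 11.6 points for Act5C, 2.03 to 3.11 for Act42A, -12.5 to -9.36 for Act57B, -1.38 to -1.07 for Act87E and -0.0806 to 0.152 for Act88F, which changed sign without control replicate 2. The log2 ratio of Act88F to Act5C was 2.50 without control replicate 1 and -0.80 without control replicate 2. Genes called up numbered 693 (without abd-A replicate 1) to 2278 (without control replicate 2) and down 744 to 2094 (the same libraries), actin regulators 26 to 39 up and 2 to 7 down, and sarcomere genes 0 to 1 up and 9 to 15 down. With 1 control left, its spread was assumed to be that of the abd-A libraries.

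Over all genes the log2 fold change had a median of 0.014 with at least 10 counts in every library, where 911 genes were called down and Act88F had no value, and it ran between -0.21 without abd-A replicate 2 and 0.10 without control replicate 2. Per kb of exons and per kb of non-coding exon bases, which weigh the genes differently, the share differences were 5.45 and 10.00 points for Act42A, -14.6 and -17.7 for Act57B, and -1.42 and -1.37 for Act87E. The difference between groups in the log2 ratio of 2 genes does not depend on their lengths. Weights by unique sequence windows were not run, since no genome sequence was used here.

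Deviations of same-numbered libraries from their group means had correlations of 0.0181 and -0.00223 over 11624 genes. With 2 controls, the deviations of one mirror those of the other, so these values are not independent. They do not show whether libraries shared a batch. Since the labels give no pairs, the numbers were not taken as pairs. With a replicate block 831 genes were called down, 1 actin regulator was called down, and 0 sarcomere genes were called up in edgeR (1 at an unadjusted p under 0.05, as with limma-voom and DESeq2, which each called 1). The blocked log2 fold changes were 2.40 for Act5C, 2.31 for Act42A, -1.96 for Act57B, -1.64 for Act87E (adjusted p = 0.0456) and 3.20 for Act88F, and no actin call changed. Act88F and Act79B are limited by counts of 14 or less in the controls.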
